A study of Zea mays with 6 samples.

Results

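Invertases and sucrose synthases were examined in maize roots as 13 Affymetrix probe sets, out of 17555 probe sets that were not array controls. A probe set reads the transcripts that match its handful of short probes, and the annotation can list more than 1 transcript entry for it. The members were the soluble invertase probe set ivr2 and every probe set of the authors' table from SAM (Significance Analysis of Microarrays, their test across probe sets) whose symbol was that of such a gene, or whose gene title or target description named an invertase, a sucrose synthase, a sucrose-phosphate synthase or a sucrose transporter. This gave 3 invertases, 7 sucrose synthase probe sets and 3 sucrose transport probe sets. The choice of ivr2 used its measured difference between the groups, so its values are given as a description and no test is attached to them. The other 12 were found by name. The table held only probe sets that had passed the authors' filter, so every member had passed it by construction. It held 12252 probe sets that were not controls, against 13116 that reached a signal of 50 on at least 3 arrays. The full rule of the authors' filter was not examined here. The soluble invertase gene ivr1 was not analysed here.

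Roots came from maize (Zea mays, cultivar Nongda108) at the reproductive stage, raised in a greenhouse on a fertilized calcareous sandy soil. In the intercropped group (3 samples) maize grew together with peanut (Arachis hypogaea, cultivar Luhua14). In the monocropped group (3 samples) maize grew without peanut. Each sample was hybridised to 1 array, and nothing in the labels says whether the samples were separate plants or pots. The p-values thus measure the spread between samples, which may be technical. The median signal lay between 135 and 142 on the 6 arrays, and 25.4% to 27.7% of probe sets had a signal below 50. Root marker names matched 2 probe sets, zrp4 and ys1, both above 121 on every array, with sums of 548 to 747 in intercropped and 420 to 712 in monocropped roots. The 2 differed in sign, with log2 differences (intercropped minus monocropped) of 0.49 for zrp4 and -0.37 for ys1. The signal of ys1 was lower on all intercropped than on any monocropped array, as for 8.69% of all probe sets tested. The 21 probe sets of green tissue markers summed to 2292 to 3543 in intercropped and 2242 to 2995 in monocropped roots. Of these, 10 were higher and 11 lower in intercropped roots. A ycf3 probe set among them was higher without overlap, as for 8.29% of all probe sets. The 11 seed marker probe sets summed to 6928 to 7632 in intercropped and 7598 to 7665 in monocropped roots. Of these, 5 were higher and 6 lower in intercropped roots. A seed probe set with a log2 difference of -0.44 was lower without overlap, as for 8.69% of all probe sets. None of these marker probe sets stood at 0, and their part in the results was not tested. In whole roots, fewer cells of a type and less RNA per cell cannot be told apart.

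Sucrose is the form in which carbon reaches a maize root from the leaves. It is cleaved there along separate routes. Invertases hydrolyse it irreversibly to glucose and fructose, either in the vacuole (soluble acid invertases), in the cell wall space (cell wall invertases) or in the cytosol (neutral and alkaline invertases). Sucrose synthase cleaves it reversibly with UDP, giving UDP-glucose and fructose, and supplies precursors for cell wall and starch synthesis. Sucrose transporters of the SUT family carry sucrose across membranes together with protons.

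The comparison asked how these genes differed between roots grown with and without peanut. The soluble and the cell wall invertase lay on opposite sides of 0. The signal of ivr2 was higher on all intercropped arrays than on any monocropped array, and that of incw1 was lower on all intercropped arrays. Among the sucrose synthases, sus2 averaged 1576 in intercropped against 767 in monocropped roots, while the means of sus1 and sh1 differed by at most 1.12-fold. None of the 12 tested members was called. Limma's moderated test, with Benjamini-Hochberg adjustment over all 13116 probe sets tested, called 0 of the 12 members other than ivr2 at an adjusted p under 0.05, against 0.0% of all probe sets. At an unadjusted p under 0.05, limma had 2 of the 12 higher and 1 lower, beside 5.6% higher and 5.51% lower of all probe sets. The authors' deposited table gave a q-value of 0 to 5 probe sets, all higher in intercropped roots, and none of the 12 members other than ivr2 was among them.

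The 13 members had a median log2 difference of 0.0068 (intercropped minus monocropped), and the 12 without ivr2 had -0.021. Over all probe sets tested the median was 0.011. The members ranged from -0.91 to 2.38, with 7 above 0 and 6 below. Without ivr2, 6 lay above and 6 below 0, where 51.9% of all probe sets lay above 0. The differences of 8 members lay within 0.25 of 0, as did those of 8835 of the 13116 probe sets. Groups did not overlap for 3 of the 13 members, and for 17.0% of all probe sets. Without ivr2, chosen by its difference, they were 2 of 12, 1 higher and 1 lower. The 3 were ivr2 and cluster set E, a probe set of the transcript cluster of sh1, both higher in intercropped roots, and for incw1, which was lower. Of all probe sets, 8.29% were higher and 8.69% lower without overlap.

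**Figure D1:**
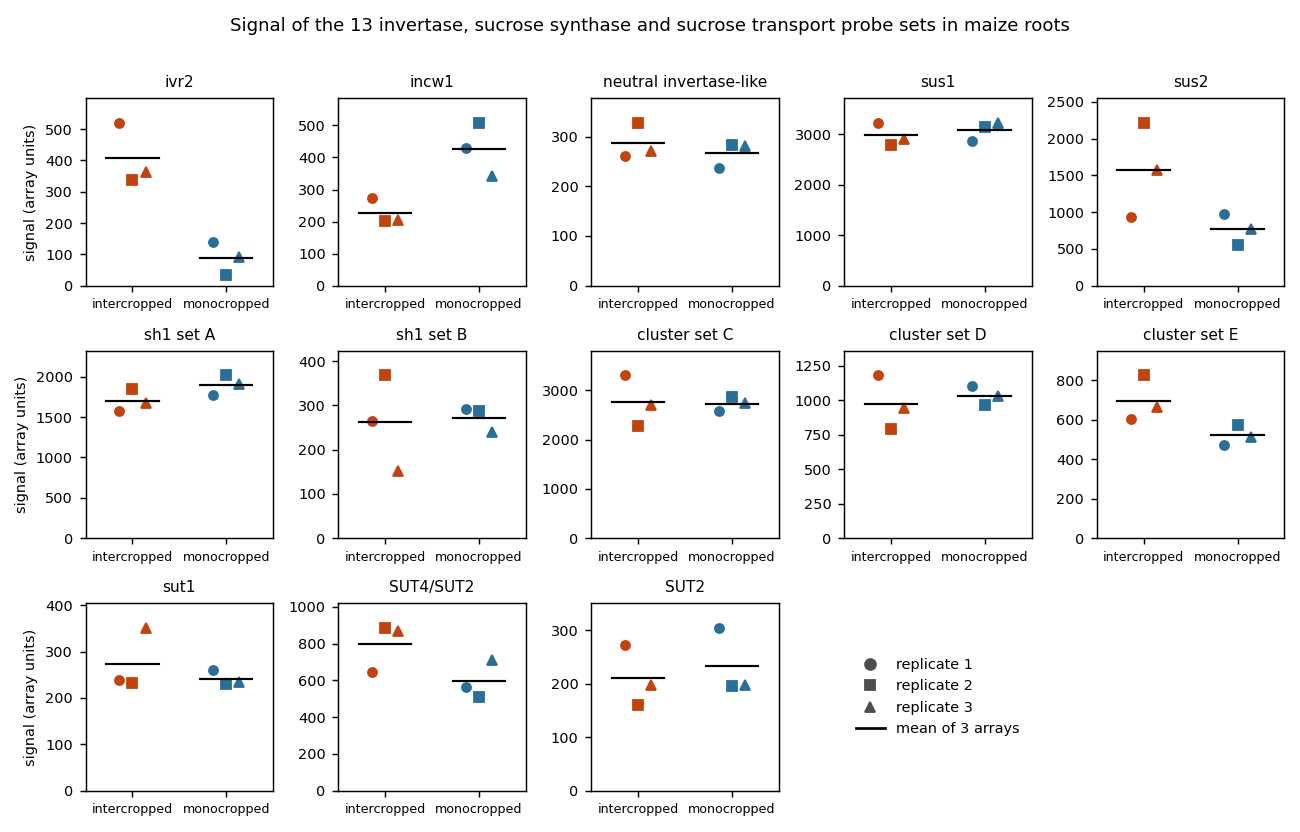
Signal in array units (linear axis from 0) of each of the 13 member probe sets, with intercropped arrays at the left of each panel and monocropped arrays at the right; symbols mark the replicate numbers and black lines the means of 3 arrays. The groups are apart for ivr2, incw1 and cluster set E, and they overlap in the other panels.

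Maize ivr2 codes for a soluble acid invertase, the vacuolar form that sets the sugar content of expanding cells. Its signal was 521, 336 and 364 in intercropped roots, against 138, 35.0 and 92.8 in monocropped roots. The lowest intercropped array was thus well above the highest monocropped array. The means were 407 ± 99.6 in intercropped and 88.7 ± 51.7 in monocropped roots (SD, n = 3 each), or a log2 difference of 2.38 ± 0.47 (SE), or 5.22-fold between the geometric means. Intercropped arrays spread over a 1.55-fold range and monocropped arrays over a 3.95-fold range. The second monocropped array, at 35.0, was the only value of any member below 50, where signals are least certain. Without that array the log2 difference was 1.82, and without the first monocropped array it was 2.81. The annotation lists 15 probes of this set as matching 1 transcript entry and 5 as cross-hybridising with a second entry. Whether the second entry belongs to a different gene was not examined, and its part in the signal was not tested.

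Cell wall invertase 1, incw1, acts outside the cell, where it cleaves sucrose arriving through the wall space. Its signal was 274, 202 and 204 in intercropped roots, against 429, 509 and 341 in monocropped roots. The groups did not overlap, and the intercropped roots were the lower ones. The means were 227 ± 41.2 in intercropped and 426 ± 83.8 in monocropped roots (SD, n = 3 each). The log2 difference was -0.91 ± 0.20 (SE), with a 95% interval of -1.37 to -0.44, a signal 1.88-fold lower with intercropping. Limma's unadjusted p was 0.00232 and the adjusted p over all probe sets was 0.219, so the difference did not pass the threshold. With 1 array left out at a time the log2 difference ran from -1.06 to -0.77. In the authors' deposited table incw1 had a q-value of 12.3%.

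The neutral kind of invertase was represented by a probe set described as weakly similar to an alkaline/neutral invertase of Arabidopsis. Enzymes of that kind cleave sucrose in the cytosol and in organelles. The signal was 261, 328 and 272 in intercropped roots, against 237, 283 and 281 in monocropped roots. The groups overlapped. The log2 difference was 0.10 ± 0.15 (SE), with a 95% interval of -0.25 to 0.46 (limma adjusted p = 0.846). The 3 invertases therefore stood at 2.38, -0.91 and 0.10 on the log2 difference scale, for the soluble, the wall and the neutral form in that order. The contrast of the soluble with the wall form was not tested, since ivr2 was chosen by its difference.

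**Figure D2:**
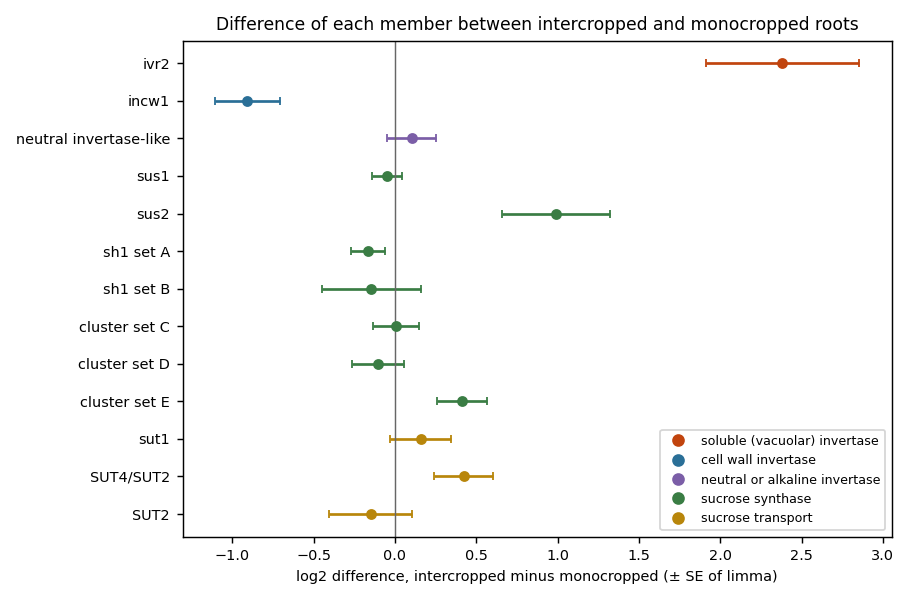
Log2 difference between intercropped and monocropped roots (horizontal axis, intercropped minus monocropped) for each member, with bars for the standard error of limma and colours for the class of enzyme or carrier. The soluble invertase ivr2 lies at 2.38 and the cell wall invertase incw1 at -0.91, and among the sucrose synthases sus2 lies farthest from 0, at 0.99.

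Maize sus1 and sh1 (shrunken1) code for the classical pair of sucrose synthases, and sh1 is best known for its role in starch formation in the endosperm. The signal of sus1 was 3225, 2784 and 2909 in intercropped roots, against 2863, 3137 and 3215 in monocropped roots. Arrays of both groups lay within the same range. The log2 difference was -0.048 ± 0.093 (SE), with a 95% interval of -0.27 to 0.17 (limma adjusted p = 0.887). The gene sh1 had 2 probe sets in the table. The first is called set A here. The annotation lists 4 of its probes as cross-hybridising with a further transcript entry and 1 with another. Their part in the signal was not tested. Set A had 1570, 1849 and 1668 in intercropped roots, against 1769, 2018 and 1912 in monocropped roots. These groups overlapped too, and the log2 difference was -0.17 ± 0.10 (SE), with a 95% interval of -0.41 to 0.081 (limma adjusted p = 0.617). The other, set B, had 266, 368 and 151 in intercropped roots, against 291, 287 and 239 in monocropped roots. Its intercropped arrays spread over a 2.43-fold range, so its log2 difference of -0.14 ± 0.31 (SE) was far less precise. Both probe sets had a mean slightly lower in intercropped roots, although without the third intercropped array the difference of set B was 0.20.

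The gene named sus2 in the annotation codes for a further sucrose synthase, whose deposited cDNA is titled sucrose synthase 3. Its signal was 935, 2218 and 1576 in intercropped roots, against 975, 551 and 776 in monocropped roots. The first intercropped array lay below the first monocropped array, so the groups overlapped, while the other intercropped arrays were above all monocropped arrays. The means were 1576 ± 641 in intercropped and 767 ± 212 in monocropped roots (SD, n = 3 each). The log2 difference was 0.99 ± 0.33 (SE), with a 95% interval of 0.21 to 1.77, an unadjusted limma p of 0.0200 and an adjusted p of 0.354. Without the first intercropped array the difference was 1.32, and without the second it was 0.70. Over the alternative settings and left-out arrays, its adjusted p in limma ran from 0.119 to 0.791.

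Another 3 probe sets, called cluster sets C, D and E here, carry the sucrose synthase title only through the transcript cluster they share with sh1, and the annotation gives them no gene symbol. It lists for them none of the transcripts it lists for sh1. For set C it lists 15 probes on the opposite strand of a transcript that 10 probes of set E match. Which gene each of them measures is thus uncertain. The signal of set E was 604, 827 and 664 in intercropped roots, against 474, 576 and 516 in monocropped roots. All intercropped arrays were above all monocropped arrays, and the log2 difference was 0.41 ± 0.16 (SE), with a 95% interval of 0.046 to 0.78 (limma adjusted p = 0.402). Set C had 3305, 2281 and 2706 in intercropped roots, against 2575, 2856 and 2735 in monocropped roots. Its monocropped values lay inside the range of the intercropped ones, with a log2 difference of 0.0068 ± 0.14 (SE). For set D the signal was 1182, 791 and 947 in intercropped roots, against 1102, 964 and 1033 in monocropped roots, with a log2 difference of -0.10 ± 0.16 (SE). Sets C and D had their highest value on the first and their lowest on the second intercropped array. Among intercropped arrays, sus2 had the opposite order. The 5 probe sets of the sh1 cluster did not show a common direction, with differences from -0.17 to 0.41.

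Sucrose transporters load and unload sucrose at membranes, and sut1 is the phloem-loading transporter of maize. Its signal was 239, 232 and 351 in intercropped roots, against 260, 230 and 234 in monocropped roots. Only the third intercropped array stood above the rest. The log2 difference was 0.16 ± 0.19 (SE), with limma adjusted p = 0.807, and without the third intercropped array it was -0.034. A further probe set matches cDNAs deposited under the names SUT4 and SUT2. The annotation lists 8 of its probes as cross-hybridising with a further transcript entry, whose part in the signal was not tested. This probe set had 644, 887 and 871 in intercropped roots, against 567, 512 and 712 in monocropped roots. The third monocropped array was above the first intercropped one, so the groups overlapped, and the log2 difference was 0.42 ± 0.18 (SE), with a 95% interval of -0.0057 to 0.85 (limma adjusted p = 0.455). The SUT2 probe set, from a cDNA titled sucrose transporter 2, had 273, 159 and 198 in intercropped roots, against 305, 195 and 197 in monocropped roots. The first array of each group was the high one. The log2 difference was -0.15 ± 0.26 (SE), and it turned to 0.0625 without the first monocropped array and to 0.0316 without the second intercropped array.

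Spread among replicates was uneven between members. The SD of the log2 signal within a group was smallest for cluster set C in monocropped roots (0.075), and it was 0.088 for sus1 there. It was largest for ivr2 in monocropped roots (1.02), followed by sh1 set B (0.65) and sus2 (0.63) in intercropped roots. The second intercropped array was an extreme for most members: it held the highest signal of 5 members and the lowest of another 5. The second monocropped array was lowest for 4 members, namely ivr2, sus2, sut1 and the SUT4/SUT2 probe set. No member had its highest or lowest value on the third monocropped array.

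**Figure D3:**
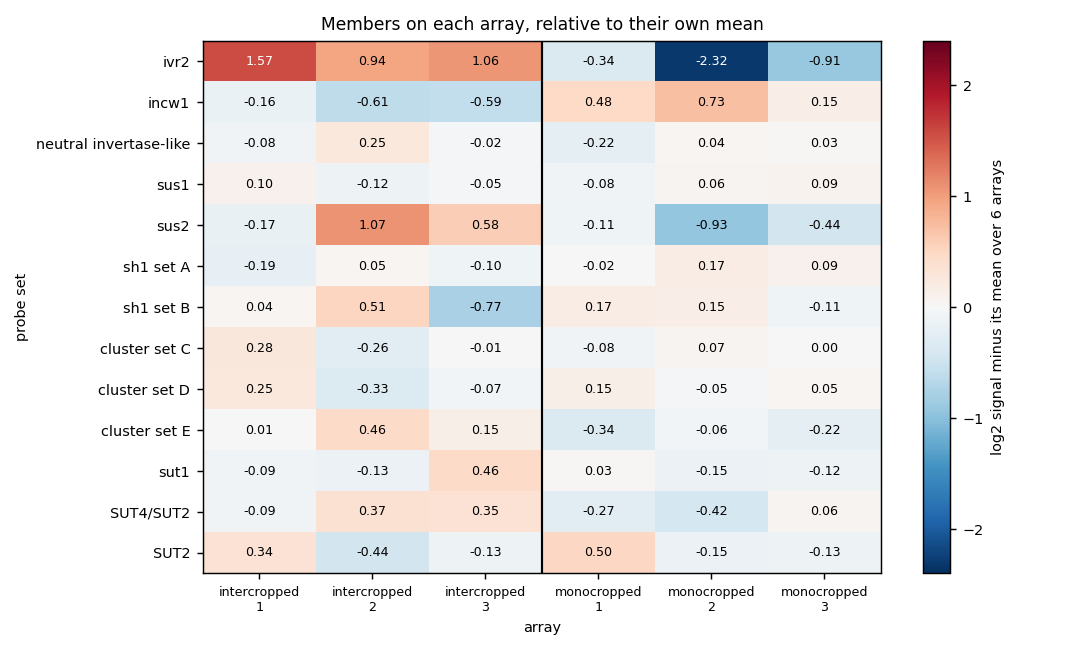
Log2 signal of each member (rows) on each array (columns, intercropped at the left and monocropped at the right), as the difference from the member's own mean over 6 arrays. ivr2 runs from 1.57 on the first intercropped array to -2.32 on the second monocropped array, and incw1 has the opposite signs.

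Outside the authors' filtered table, probe sets of these families were searched only through a single assigned gene, so any without one were missed. The probe sets found there were dim. The 5 probe sets were 1 of incw2 (miniature1), the cell wall invertase of the kernel base, 2 of incw3, 1 of sps1, a sucrose-phosphate synthase, and 1 more of sh1. Their signals lay between 14.9 and 40.7 on all arrays, below 50 throughout, and they were left out of the test. The probe set of incw2 had 19.6, 17.2 and 20.5 in intercropped roots, against 27.1, 29.8 and 33.8 in monocropped roots. The groups did not overlap, but no fold change is given at such signals. Of the members, ivr2 had 5 arrays at or above 50 and the other 12 had all 6.

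Sugars released by these enzymes are phosphorylated by hexokinases and fructokinases, interconverted by phosphoglucomutase, moved by monosaccharide transporters, or drawn into trehalose metabolism. In the authors' table such genes were represented by 28 probe sets besides the members. A phosphoglucomutase and a trehalose-phosphatase among them reached a signal of 50 on the arrays of 1 group only. These 2 passed the filter through the group where they were high, so they are described without a test and left out of the counts. The phosphoglucomutase had 54.4, 66.1 and 51.4 in intercropped roots, against 36.0, 43.4 and 42.5 in monocropped roots. Of the other 26, limma called 0 over all probe sets tested, while 2 higher and 2 lower had an unadjusted p under 0.05, beside 5.6% higher and 5.51% lower of all probe sets. In all, 11 of the 26 were above 0 and 15 below, with a median log2 difference of -0.058. The groups did not overlap for 2 that were higher and 3 that were lower in intercropped roots, beside 8.29% and 8.69% of all probe sets. The 9 hexokinase probe sets had 5 above and 4 below 0, the other 3 phosphoglucomutase probe sets lay at 0.38, 0.35 and 0.0008, and the trehalose-6-phosphate synthases at -0.17 and -0.19. Both fructokinases, frk1 and frk2, lay below 0, at -0.053 and -0.24. Of the 10 hexose and sugar transport probe sets, 7 were below 0. The 4 probe sets of the hexokinase LOC542510 disagreed in sign, at 0.32, 0.26, -0.034 and -0.26.

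Named from these neighbours by the smallest p were 2 probe sets of MST1, 1 hexokinase and the trehalose-phosphatase, whose place in that order rests on the filter. MST1 is a monosaccharide transporter, a carrier of the hexoses that cell wall invertase releases. Its brighter probe set had 1250, 1160 and 1473 in intercropped roots, against 1609, 2084 and 2038 in monocropped roots, giving a log2 difference of -0.56 ± 0.14 (SE, limma adjusted p = 0.273). The dimmer one had 493, 390 and 586 in intercropped roots, against 668, 848 and 813 in monocropped roots, with a log2 difference of -0.68 ± 0.18 (SE, limma adjusted p = 0.278). The groups were apart for both probe sets, with intercropped roots lower, as for incw1. A probe set weakly similar to Arabidopsis hexokinase 1, the enzyme that phosphorylates glucose, had 310, 542 and 346 in intercropped roots, against 271, 167 and 185 in monocropped roots. Its groups did not overlap, and the log2 difference was 0.93 ± 0.27 (SE, limma adjusted p = 0.287). The trehalose-phosphatase probe set was dim, with 32.8, 35.9 and 45.8 in intercropped roots, against 54.1, 65.0 and 60.1 in monocropped roots. All its intercropped signals were below 50, where signals are least certain, so no fold change or test is given.

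**Figure D4:**
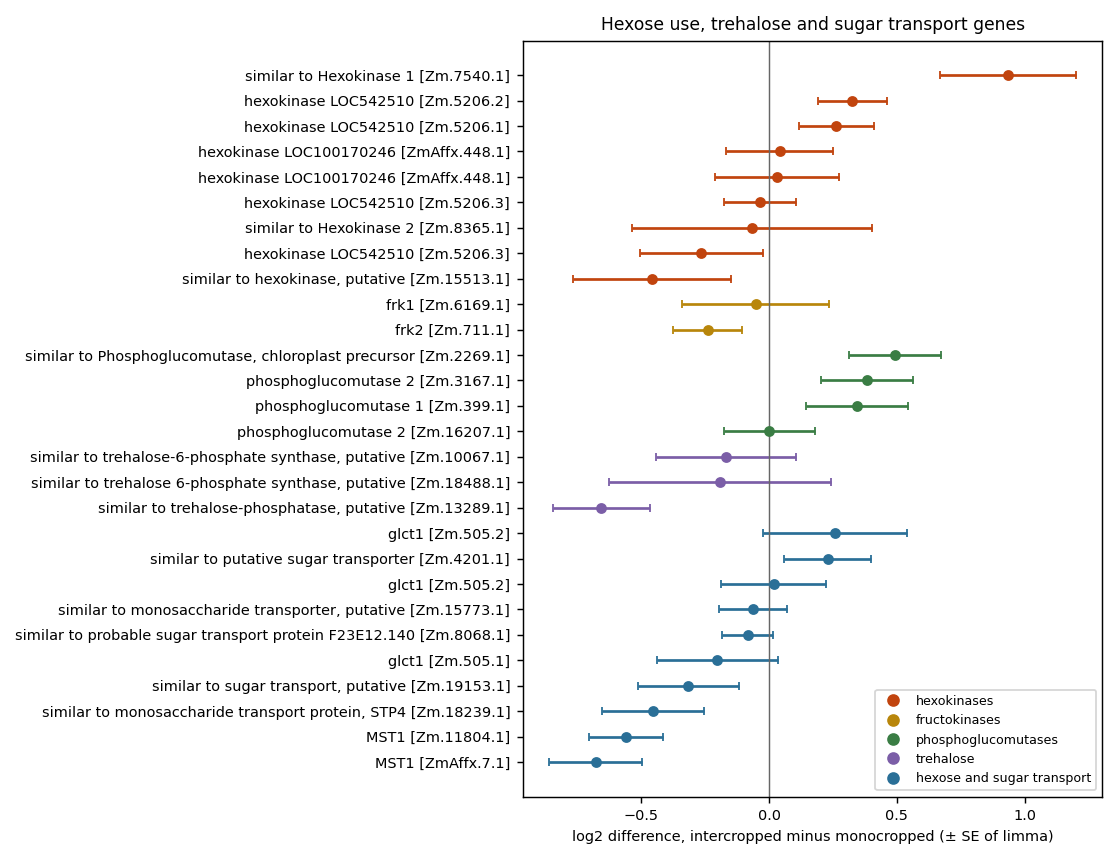
Log2 difference between intercropped and monocropped roots (horizontal axis, intercropped minus monocropped) for 28 probe sets of hexose phosphorylation, interconversion, trehalose metabolism and sugar transport, with the standard error of limma as bars and the probe set cluster in brackets. Both MST1 probe sets lie at the low end (-0.56 and -0.68), and the probe set similar to hexokinase 1 lies highest, at 0.93; the trehalose-phosphatase and the phosphoglucomutase similar to a chloroplast precursor passed the filter through 1 group only.

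Likeness to ivr2 was measured as the root mean square difference of log2 signals over the 6 arrays, after each probe set's own mean was subtracted. Among the other members sus2 was nearest (0.957) and incw1 farthest (1.79). Among 3047 named probe sets that were not members, the nearest was lim1, a homolog of LIM transcription factors (0.589), with 832, 675 and 459 in intercropped roots, against 484, 141 and 211 in monocropped roots. The third of its intercropped arrays lay below its first monocropped array, so the groups overlapped. The next were a probe set similar to a peroxidase (0.637), homocysteine S-methyltransferase-2 (0.652), a blue copper protein (0.681) and an ABA- and ripening-inducible-like protein (0.686). All 5 had their lowest value on the second monocropped array, as ivr2 did. The choice by nearness favours this, since ivr2 lay farthest from its own mean on that array. Their log2 differences were between 1.21 and 1.92, smaller than the 2.38 of ivr2. The measure ranks patterns over these 6 arrays and was picked with the difference of ivr2 known, so it carries no test.

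**Figure D5:**
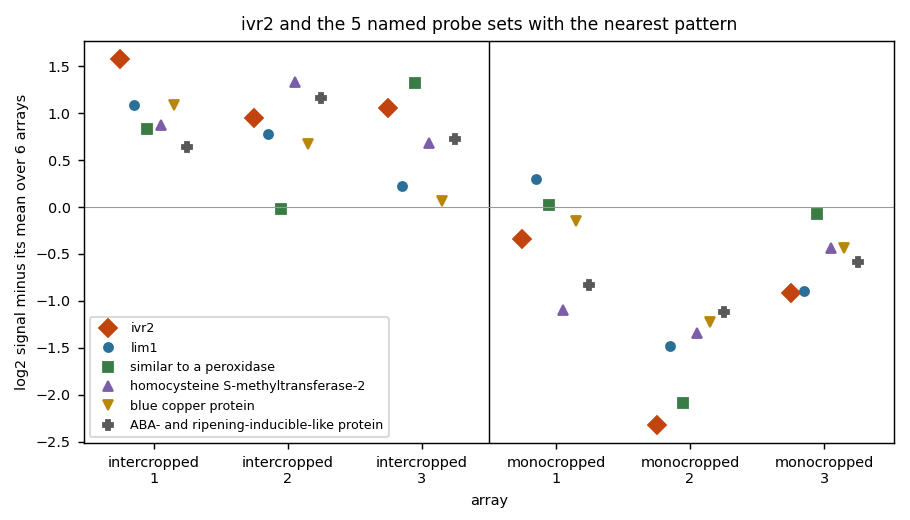
Log2 signal minus its own mean over 6 arrays (vertical axis) for ivr2 and the 5 named probe sets nearest to it, on each array (intercropped at the left, monocropped at the right). The 5 lie lowest on the second monocropped array, where ivr2 stands at -2.32.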

How the data were processed

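Root RNA of 6 samples was measured on single-colour Affymetrix maize arrays. The deposited intensity values are on a linear scale and were summarised and scaled by the authors with GCOS 1.4, per the submitters' processing notes. Algorithm and scaling target: not given in the sources used here. Scaling hides any change common to all transcripts. The authors' filtered table holds log2 values equal to log2 of those intensities. Per the file headers, the authors' SAM table gives a score, a log2 difference, a fold change as a ratio and a q-value as a percent, from an unpaired comparison with 100 permutations.

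Of 17734 probe sets, 179 controls were left out. Intensities under 1 were set to 1. The 13116 probe sets that reached an intensity of 50 on 3 or more arrays were tested. Limma 3.58.1 in R 4.3.3 (lmFit, eBayes with trend=TRUE) was used two-sided, with Benjamini-Hochberg adjustment. Log2 differences had a median standard error of 0.18, and the number of arrays limits precision. On simulated data for this comparison, limma called 88.0% of 4-fold and 53.0% of 2-fold changes. There 200 of the 13116 probe sets were changed, the rest did not differ, and noise was normal and independent between probe sets. In the real data 11.1% had an unadjusted limma p under 0.05. The simulated shares may therefore not hold for the real data. Signed differences are intercropped minus monocropped. Each probe set was treated separately.

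Members, lists and tests were chosen with earlier results of these data known. Named were all members, 28 pathway neighbours found by name (1 match on phosphofructokinase was removed) with the 4 smallest p, and the 5 probe sets nearest to ivr2. For the last, titles of hypothetical or putative proteins without a function did not count as names, a limit set after the values were seen. Marker lists for root, green tissue and seed were matched on symbols and titles. Alternatives were 2 other normalizations, 3 other filters, an added 32 before log2, trend=FALSE, the replicate number as a block, and each array left out.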

Additional observations from a re-analysis of the deposited data

How the results depend on the processing

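Limma called 0 probe sets under 7 of the 8 alternatives that kept all arrays, and 1 with 32 added to the signal. With 1 array left out the count ran from 0 to 34, the 34 arising without the first intercropped array. The count of called members other than ivr2 was 0 under all 14 alternatives, and their lowest adjusted p was 0.107 (incw1). The median log2 difference of the members ran from -0.11 (without the first intercropped array) to 0.0421 with 1 array left out, and was -0.0136 after quantile normalization and -0.029 with equal array medians. No paired design was stated: same-numbered arrays had correlations of deviations of 0.27, -0.069 and -0.0041, only the first intercropped array was nearest to its own number, and with the replicate block 0 probe sets and 0 members were called. Of the 13 members, 8 kept their sign throughout. Cluster set C turned to the same -0.0136 and -0.029 under those normalizations, and ran from -0.13 to 0.14 with 1 array left out. With 1 array left out, sh1 set B ran from -0.44 to 0.20, cluster set D from -0.25 to 0.0368, sut1 from -0.0339 to 0.26 and SUT2 from -0.36 to 0.0625. The log2 difference of ivr2 was 1.94 with 32 added. The cause of these shifts was not tested.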

Other observations

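Enzymes next to the members were picked after their values were seen, so they are described and no test is attached to them. Sucrose-phosphatase 1 (spp1), which carries out the last step of sucrose synthesis, had 403, 476 and 436 in intercropped roots, against 383, 288 and 315 in monocropped roots. Its groups did not overlap, as for 8.29% of all probe sets with intercropped roots higher. The log2 difference was 0.42 ± 0.15 (SE). Alkaline alpha-galactosidases split galactose from raffinose-type sugars and so release sucrose, and the pair of them differed in sign. AGA1 had 446, 1757 and 791 in intercropped roots, against 621, 168 and 244 in monocropped roots. Its log2 difference was 1.53 ± 0.60 (SE), and its groups overlapped. AGA2 had 112, 88.7 and 98.6 in intercropped roots, against 176, 143 and 304 in monocropped roots. Its log2 difference was -0.99 ± 0.28 (SE). Its groups did not overlap, as for 8.69% of all probe sets with intercropped roots lower. The order of arrays was the same for AGA1 and sus2 within the intercropped and within the monocropped group.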
